A study of Homo sapiens with 6 samples.

Results

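The stanniocalcins and secreted stress hormones described here are 8 genes, STC1, STC2, INHBE, INHBA, INHBB, GDF15, FGF21 and ADM2, taken by symbol from a count table of 57820 genes. All 8 had a row, and 7 of them passed the filter on low counts that left 17225 genes tested. The exception was INHBA, which is given as counts only. The members were selected on results of this same comparison, their fold changes and calls between minocycline and vehicle, so their differences between the groups are a description and carry no test here.

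Of the 6 libraries, 3 came from HEK293 cells, a line of human embryonic kidney origin, after 12 h with 100 µM minocycline. The other 3 came from HEK293 cells after 12 h with the vehicle dimethyl sulfoxide (DMSO). Neither group was heat shocked, and both grew in the same serum-containing medium with penicillin and streptomycin. Minocycline is a tetracycline antibiotic, a class that binds bacterial ribosomes and can slow translation in mitochondria. The comparison addresses how total RNA of the cells differed after the drug. All libraries come from a single cell line, and the labels give replicates 1, 2 and 3 of both groups as batches 1, 2 and 3.

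Stanniocalcins are secreted glycoproteins, known first as calcium-regulating hormones of fish, and STC2 binds and inhibits PAPP-A, a protease that frees insulin-like growth factors from their binding proteins. Activins are secreted dimers of inhibin beta subunits in the TGF-beta superfamily, and GDF15 is a distant member of the same superfamily that signals through GFRAL in the hindbrain. FGF21 is an endocrine fibroblast growth factor that needs the co-receptor KLB, and ADM2 (intermedin) is a calcitonin-family peptide that acts through the receptor CALCRL with RAMP proteins. STC2, INHBE, GDF15, FGF21 and ADM2 are known targets of the integrated stress response, whose main transcription factor is ATF4.

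The libraries held 17303180 to 17835756 counts each. On the first principal component, which held 52.9% of the variance, vehicle replicate 1 (-34.9) stood apart from vehicle replicates 2 (31.1) and 3 (47.1) and beside minocycline replicate 2 (-32.3), with minocycline replicates 1 and 3 at -14.0 and 3.06. Of 8 markers listed for HEK293 cells 6 were matched, all with counts, and they summed to 1492 to 1766 CPM (counts scaled by library size and composition) with minocycline and 1366 to 2082 CPM with vehicle. The 5 fibroblast markers summed to 57.9 to 74.7 CPM with minocycline and 77.1 to 85.0 CPM with vehicle, nearly all of it from COL1A1, while DCN had 0 counts in every minocycline library and at most 2 in a vehicle library. Blood and hepatocyte markers summed to at most 2.91 and 0.571 CPM with minocycline, and to at most 2.66 and 0.896 CPM with vehicle. The part of these markers in the results below was not tested. In bulk RNA, fewer cells that make a transcript and less of it per cell cannot be told apart.

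Start-site sequences show an arrangement that touches FGF21. RefSeq promoter windows, of 250 bases before and 50 bases after a start site in build GRCh38.p14, were matched for STC2, INHBA, INHBB, GDF15, FGF21 and ADM2. The FGF21 window (chr19:48755274-48755573, plus strand) shared 265 of its 300 bases with a window of FUT1, a fucosyltransferase gene that is read in the opposite direction (chr19:48755309-48755608, minus strand). A second FUT1 window (chr19:48752592-48752891, minus strand) shared 0 bases with that of FGF21 and held no TGATGNAA. The stretch shared by the first held TGATGCAA, a form of the composite element TGATGNAA that C/EBP and ATF factors are known to bind. It began 54 bases before the FGF21 start site, where it stands as its reverse complement, and 119 bases before the start site of that FUT1 window. The FGF21 window is shown 5′ to 3′ with that match in capitals, and the STC2 window (chr5:173328365-173328664, minus strand), of the member with the highest level, is shown for contrast.
FGF21: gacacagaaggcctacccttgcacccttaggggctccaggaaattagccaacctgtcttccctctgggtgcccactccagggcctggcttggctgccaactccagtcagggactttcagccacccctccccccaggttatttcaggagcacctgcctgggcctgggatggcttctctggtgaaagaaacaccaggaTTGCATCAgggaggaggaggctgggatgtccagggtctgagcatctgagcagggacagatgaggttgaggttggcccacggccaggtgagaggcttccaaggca
STC2: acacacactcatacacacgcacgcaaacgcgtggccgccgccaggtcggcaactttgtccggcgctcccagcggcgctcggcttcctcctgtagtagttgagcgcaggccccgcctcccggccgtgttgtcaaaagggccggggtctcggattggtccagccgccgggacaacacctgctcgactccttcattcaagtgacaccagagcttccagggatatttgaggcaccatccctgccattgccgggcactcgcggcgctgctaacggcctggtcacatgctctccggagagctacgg

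TGATGNAA was searched on both strands and was present in 3.62% of 35116 windows, and TGATGCAA in 0.866%. No window of STC1 or INHBE was searched, and among the member windows that were, FGF21 alone held either. The other sequences searched on both strands were ACGTG, the core of the hypoxia element, found in 21.4% of all windows, and TGACTCA, the AP-1 site, found in 4.95%. No member window that was searched held either of these. TGATGCAA is a case of TGATGNAA, so its windows are among those of TGATGNAA, and neither of these contains ACGTG or TGACTCA. A match describes letters only, and its absence concerns this window only. The windows differed in composition: the FGF21 window had a G+C content of 60.0% and 1 CpG, the STC2 window 64.0% and 28, ADM2 76.7% and 33, INHBB 88.7% and 58, GDF15 59.3% and 11, and INHBA 43.3% and 1. Over all windows the median was 58.7%, with 14 CpG.

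STC2 transcripts were by far the most abundant of the members and rose with minocycline. There were 3570, 2986 and 2850 STC2 counts in minocycline replicates 1, 2 and 3, against 930, 689 and 701 in vehicle replicates 1, 2 and 3. Scaled, these were 195, 162 and 163 CPM with minocycline and 50.5, 41.1 and 42.4 CPM with vehicle. Every minocycline library lay above every vehicle library, and replicate 1 was the highest in each group. The fitted log2 fold change of STC2 was 1.96 ± 0.14 (SE, n = 3 per group), a fold of 3.88. Within batches 1, 2 and 3 the log2 differences were 1.95, 1.98 and 1.94, the narrowest range of any member. STC2 (ENSG00000113739.6) lies on the minus strand of chromosome 5 from 172741726 to 172755450 (GRCh37), and its nearest coding neighbours were NKX2-5 and BOD1. NKX2-5, which encodes a homeodomain transcription factor, lies 79411 bases away and had a log2 fold change of -0.18 ± 0.14. BOD1, which encodes a protein of chromosome biorientation, lies 278697 bases away and had -0.039 ± 0.14, with a positive sign under library size scaling and without minocycline replicate 2 or vehicle replicate 3. Neither passed the test.

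STC1, the paralogue of STC2, was near the bottom of the measured range. It had 23, 31 and 24 counts with minocycline, against 23, 14 and 19 counts with vehicle. The scaled levels were 1.26, 1.69 and 1.37 CPM with minocycline and 1.25, 0.836 and 1.15 CPM with vehicle. The groups touch: minocycline replicate 1 and vehicle replicate 1 had equal counts, and the scaling alone sets them apart. STC1 had a log2 fold change of 0.41 ± 0.31, with 0.0071, 0.93 and 0.24 within batches 1, 2 and 3. STC2 made up 99.4%, 99.0% and 99.2% of stanniocalcin counts in minocycline replicates 1, 2 and 3, and 97.6%, 98.0% and 97.4% in the vehicle replicates. The lowest 95% Wilson bound was 98.5% with minocycline and 95.9% with vehicle, and such intervals cover counting error only. STC1 (ENSG00000159167.7) lies on the minus strand of chromosome 8 from 23699442 to 23712319. Its coding neighbours were nearly silent, NKX2-6 with 0 counts in all libraries, which allows up to 3 counts in each, and ADAM28 with at most 4 counts in any library.

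**Figure D1:**
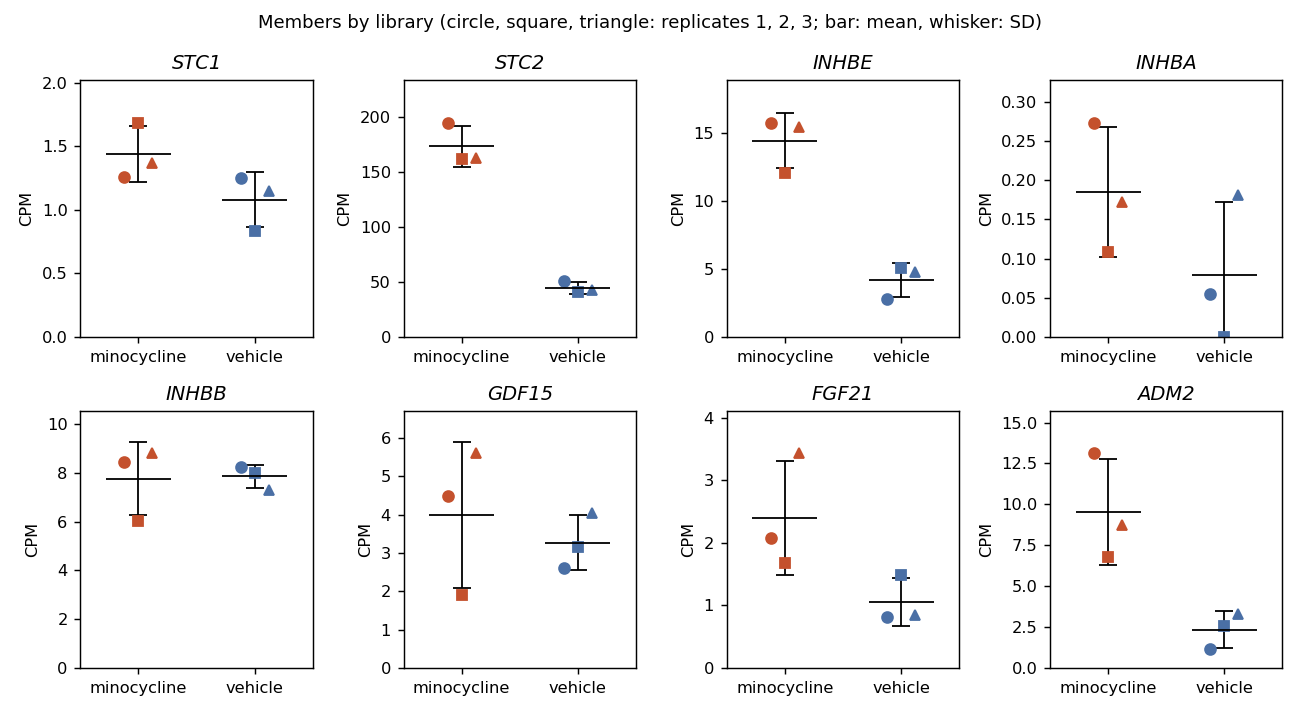
Scaled levels (CPM) of the 8 members in each library, minocycline at the left and vehicle at the right of each panel, with the mean as a bar and the SD as a whisker. STC2, INHBE, ADM2 and FGF21 have all 3 minocycline libraries above all 3 vehicle libraries, while the groups interleave for INHBB, GDF15 and INHBA and nearly touch for STC1.

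Among the activin beta subunits, INHBE was higher with minocycline and INHBB was at a like level in both groups. INHBE, the subunit of activin E and known mainly from liver, had 288, 222 and 270 counts in minocycline replicates 1, 2 and 3, against 51, 85 and 79 counts in vehicle replicates 1, 2 and 3. This corresponds to 15.7, 12.1 and 15.4 CPM with minocycline and 2.77, 5.08 and 4.78 CPM with vehicle. The groups lay well apart, with the lowest vehicle level in replicate 1. INHBE had a log2 fold change of 1.78 ± 0.25, a fold of 3.43, and the values within batches 1, 2 and 3 were 2.46, 1.23 and 1.67. Its call turned on the setting: INHBE was not called here, and was called with the batch number as a block in the fit (1.80 ± 0.26) and without vehicle replicate 1 (1.55 ± 0.19, with 17.9% of all genes called), in 5 of 12 alternatives in all.

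INHBB, the subunit of activin B, had 155, 111 and 154 counts with minocycline, against 152, 134 and 121 counts with vehicle. These were 8.47, 6.04 and 8.80 CPM with minocycline and 8.26, 8.0 and 7.31 CPM with vehicle, so that the vehicle libraries lay inside the range of the minocycline libraries. Its log2 fold change was -0.018 ± 0.20, and the sign was positive with library size scaling, without minocycline replicate 2 and without vehicle replicate 1. INHBA, the subunit of activin A, was almost absent, with 5, 2 and 3 counts with minocycline and 1, 0 and 3 counts with vehicle. The summed counts were 10 with minocycline (exact Poisson 95% interval 4.80 to 18.4) and 4 with vehicle (1.09 to 10.2). These intervals overlap, and a difference in INHBA was not detectable at this depth. INHBA-AS1, an antisense RNA gene that overlaps INHBA, had 0 counts in every minocycline library and 0, 0 and 2 in the vehicle libraries.

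The share of INHBE was taken over the summed counts of INHBE, INHBB and INHBA, leaving out INHBC, which is no member. INHBE took 64.3%, 66.3% and 63.2% of this sum in minocycline replicates 1, 2 and 3, against 25%, 38.8% and 38.9% in the vehicle replicates. The shares did not overlap between the groups, and since INHBE was selected on this comparison they are given as a description. The vehicle libraries differed more among themselves than the minocycline libraries did.

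**Figure D2:**
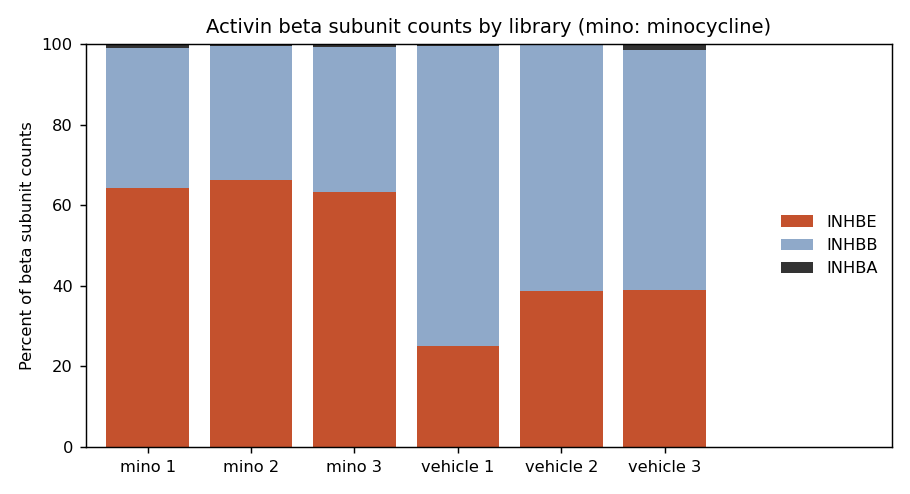
Share of the summed INHBE, INHBB and INHBA counts in each library (percent), minocycline libraries at the left. INHBE is above 60% of the bar in each minocycline library and at 25% to 38.9% in the vehicle libraries, while INHBA is hardly visible in any.

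INHBE (ENSG00000139269.2) lies on the plus strand of chromosome 12 from 57846106 to 57853063. Its paralogue INHBC, the subunit of activin C, ends 260 bases upstream and had 12, 11 and 21 counts with minocycline, against 4, 8 and 10 with vehicle. INHBC had a log2 fold change of 0.92 ± 0.49 and did not pass (adjusted p = 0.820). On the other side GLI1, a transcription factor of hedgehog signalling, starts 504 bases downstream and had 5.47 ± 0.74 CPM with minocycline and 4.54 ± 1.33 CPM with vehicle (SD, n = 3), a log2 fold change of 0.27 ± 0.25. INHBB (ENSG00000163083.5) lies on the plus strand of chromosome 2 from 121103712 to 121109379, and INHBA (ENSG00000122641.9) on the minus strand of chromosome 7 from 41706766 to 41745432. The neighbours of these 2 members were RALB, SUGCT and GLI3, with log2 fold changes of -0.24 ± 0.16, -0.37 ± 0.38 and -0.070 ± 0.15, and FLJ14816, with at most 2 counts in a library. None passed the test. GLI3 had a positive sign without minocycline replicate 3. RALB and SUGCT passed as lower genes without vehicle replicate 1, where 17.9% of all genes passed in either direction.

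ADM2 had the largest fitted fold of the members. It had 240, 125 and 153 counts in minocycline replicates 1, 2 and 3, against 21, 43 and 55 counts in vehicle replicates 1, 2 and 3. These were 13.1, 6.80 and 8.74 CPM with minocycline and 1.14, 2.57 and 3.32 CPM with vehicle. The groups did not overlap, though levels inside each group varied more than those of STC2. The fitted log2 fold change of ADM2 was 2.03 ± 0.38, a fold of 4.09, with 3.41, 1.37 and 1.37 within batches 1, 2 and 3. Batch 1 thus held both the highest minocycline level and the lowest vehicle level. ADM2 was called in 3 of 12 alternatives and not here. Of those, 1 left out vehicle replicate 1 (1.69 with that library left out), where 17.9% of all genes were called.

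ADM2 (ENSG00000128165.7) lies on the plus strand of chromosome 22 from 50919972 to 50924869. In whole gene spans, introns included, 2381 of its 4898 bases overlap SBF1, a gene of the opposite strand that encodes a phosphatase-related protein. The overlap of exons was not measured. SBF1 had 12135, 11014 and 8148 counts with minocycline and 11237, 10254 and 10340 with vehicle, many times those of ADM2. The sources used here do not say whether the counting used strand. Reads of both genes may therefore not have been separated, and the ADM2 level is uncertain. SBF1 had a log2 fold change of -0.097 ± 0.16 (adjusted p = 0.889). MIOX, 343 bases downstream of ADM2, had at most 4 counts in a library, and PPP6R2, a phosphatase subunit gene on the other side, had a log2 fold change of -0.072 ± 0.14, positive with library size scaling and without vehicle replicate 3.

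FGF21 was low in every library. The FGF21 counts were 38, 31 and 60 in minocycline replicates 1, 2 and 3, against 15, 25 and 14 in vehicle replicates 1, 2 and 3. In CPM these were 2.08, 1.69 and 3.43 with minocycline and 0.815, 1.49 and 0.846 with vehicle. The groups did not overlap, but minocycline replicate 2 and vehicle replicate 2 were close. FGF21 had a log2 fold change of 1.18 ± 0.38, a fold of 2.27, and within batches 1, 2 and 3 it was 1.25, 0.16 and 1.90. FGF21 was called in 0 of 12 alternative settings, where its log2 fold change ran between 0.83 and 1.52.

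FUT1, of which 1 window overlaps that of FGF21, rose with minocycline. In GRCh37 the 2 genes lie head to head on chromosome 19, FUT1 on the minus strand from 49251268 to 49258647 and FGF21 (ENSG00000105550.4) on the plus strand from 49258781 to 49261590, with 133 bases between them. FUT1 had 489, 387 and 444 counts with minocycline, against 116, 125 and 101 with vehicle. The level was 24.4 ± 2.97 CPM with minocycline and 6.62 ± 0.73 CPM with vehicle (SD, n = 3), with a log2 fold change of 1.88 ± 0.17 in edgeR's quasi-likelihood test (Benjamini-Hochberg adjusted p = 0.00694). It lost the call without minocycline replicate 1 or minocycline replicate 3 (adjusted p up to 0.104). BCAT2, the mitochondrial branched-chain aminotransferase gene 36728 bases beyond FGF21, had 97.2 ± 6.95 CPM with minocycline and 114 ± 22.7 CPM with vehicle. Its log2 fold change was -0.22 ± 0.16 (adjusted p = 0.820). BCAT2 passed as a lower gene without vehicle replicate 1 (adjusted p = 0.0314, of a range up to 1.00 over the alternatives). In that setting 17.9% of all genes passed in either direction. FUT1 was the single neighbour, among those tested beside any member, that passed over all genes.

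**Figure D3:**
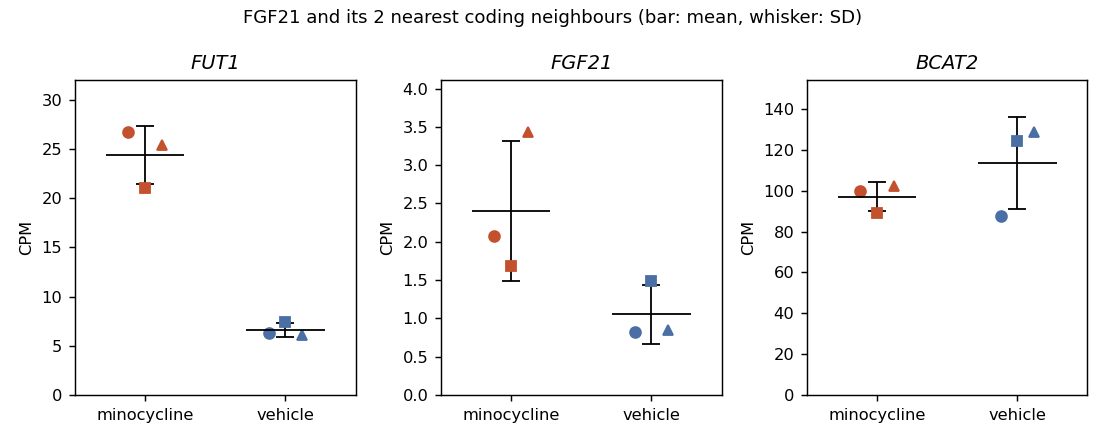
Scaled levels (CPM) of FUT1, FGF21 and BCAT2 in each library, minocycline at the left and vehicle at the right, with the mean as a bar and the SD as a whisker. FUT1 and FGF21 have no overlap between the groups, and the groups overlap for BCAT2.

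GDF15 differed little between the groups beside its spread. It had 82, 35 and 98 counts with minocycline, against 48, 53 and 67 counts with vehicle. These were 4.48, 1.90 and 5.60 CPM with minocycline and 2.61, 3.16 and 4.05 CPM with vehicle. Minocycline replicate 2 lay below all vehicle libraries, and the other minocycline libraries lay above them. GDF15 had a log2 fold change of 0.29 ± 0.37, with 0.76, -0.70 and 0.46 within batches 1, 2 and 3, and it turned to -0.049 without minocycline replicate 3. GDF15 (ENSG00000130513.6) lies on the plus strand of chromosome 19 from 18485541 to 18499986. PGPEP1, a peptidase gene 4780 bases away, had a log2 fold change of 0.080 ± 0.18, negative without minocycline replicate 1 or vehicle replicate 1. LRRC25 on the other side had at most 5 counts in a library.

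Of the 7 members tested, 1 (STC2) passed the threshold, where 0.0522% of all 17225 genes were called and all of those were higher with minocycline. In 5 of the 7 every minocycline library lay above every vehicle library in CPM, an arrangement shown by 5.74% of all genes. In 0 of the 7 the reverse held, which 3.56% of all genes showed. STC1 is among these 5 by scaling alone, since its replicate 1 libraries had 23 counts in both groups. Since the members were listed with this comparison known, nothing is read from these shares. The median log2 fold change was 1.18 over the 7 members that passed the filter and 0.013 over all genes. With the batch block 2 members passed (STC2 and INHBE), where 0.0755% of all genes did. Without vehicle replicate 1, 3 members passed (STC2, INHBE and ADM2), but so did 17.9% of all genes. The same 3 passed in DESeq2 (0.284% of all genes) and with no filter on low counts (0.28%), and STC2 and INHBE with library size scaling (0.0755%). STC2 alone of the members passed with RLE factors (0.0464%), with at least 10 counts asked of every library (0.0708%), and without vehicle replicate 2 (0.0225%) or vehicle replicate 3 (0.0508%). Likewise it alone passed without minocycline replicate 1 (0.00566%), 2 (0.0454%) or 3 (0.00565%).

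**Figure D4:**
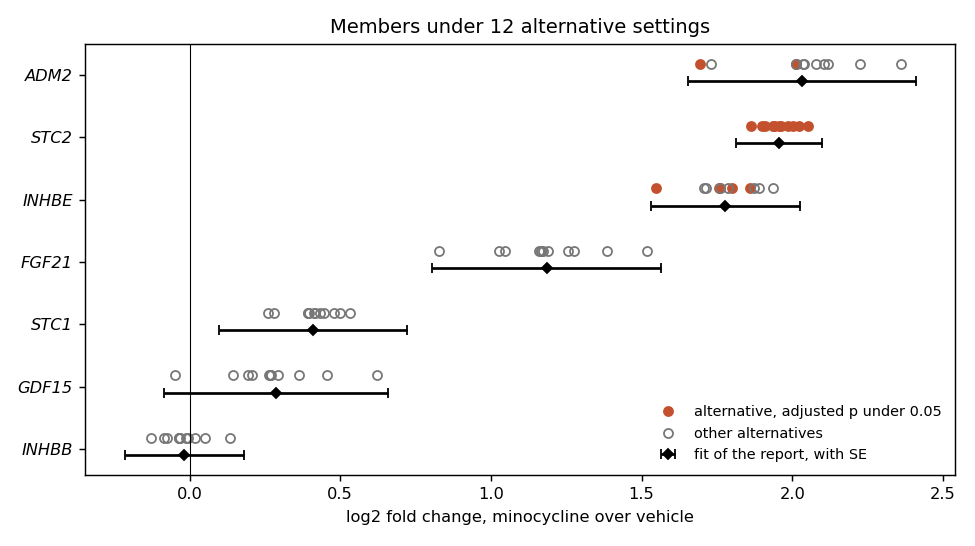
Log2 fold changes (minocycline over vehicle) of the 7 members tested, with the fit described here as diamonds with SE and 12 alternative settings as circles, filled where the adjusted p was under 0.05. STC2 is filled in all 12, INHBE in 5 and ADM2 in 3, and the values of INHBB and GDF15 fall on both sides of 0.

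The same libraries were the extremes of their group for several members at once. In CPM, minocycline replicate 2 was the lowest of its group for 7 of the 8 members, and the highest for STC1. For STC2 this rests on scaling, with 162.4 against 162.9 CPM in replicate 3 but 2986 against 2850 counts. INHBA had 2 counts there and 3 in replicate 3. Vehicle replicate 1 was the lowest of its group for INHBE, GDF15, FGF21 and ADM2, and the highest for STC1, STC2 and INHBB. Its place for FGF21 also rests on scaling, with 15 counts against 14 in replicate 3 (0.815 and 0.846 CPM). How often each library was the extreme over all genes was not counted. Minocycline replicate 2 and vehicle replicate 1 lay at the same end of the first principal component. The part of that component in the members' differences was not tested.

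Set per kilobase of annotated exon, the members spanned a wide range of levels. With minocycline STC2 stood at 34.3 ± 3.70 CPM per kb (SD, n = 3) and INHBE followed at 4.73 ± 0.67. INHBB (2.42 ± 0.47), ADM2 (2.23 ± 0.75), GDF15 (1.91 ± 0.91) and FGF21 (1.78 ± 0.68) came next and overlapped one another. STC1 (0.348 ± 0.054) and INHBA (0.0223 ± 0.0100) were lowest. With vehicle STC2 stood at 8.83 ± 1.01 CPM per kb and INHBB at 2.45 ± 0.15. Then came GDF15 (1.57 ± 0.35), INHBE (1.38 ± 0.41), FGF21 (0.779 ± 0.283), ADM2 (0.547 ± 0.259) and STC1 (0.261 ± 0.052), each of which overlapped the next, and INHBA (0.00948 ± 0.0112) was lowest. In this order INHBE stood at place 2 with minocycline and at place 4 with vehicle, and ADM2 at place 4 with minocycline and place 6 with vehicle, but these places rest on means, and libraries of neighbours in the order overlap for ADM2 in both groups and for INHBE with vehicle. Among 16757 tested genes with a known exon length, STC2 lay at percentile 92.1 with minocycline and 69.2 with vehicle, and STC1 at 9.52 and 7.48.

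**Figure D5:**
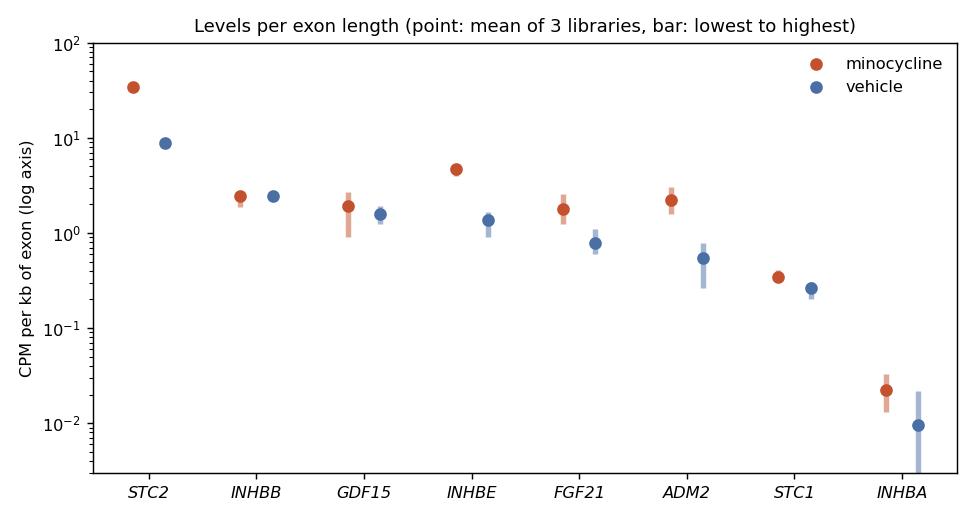
Level of each member in CPM per kilobase of exon on a log axis, minocycline left of vehicle, with points for the mean of 3 libraries and bars from the lowest to the highest library. The minocycline and vehicle bars are far apart for STC2 and INHBE and apart for ADM2. They nearly meet for FGF21 and STC1 and overlap for INHBB, GDF15 and INHBA. The vehicle bar of INHBA runs off the axis because 1 library had 0 counts.

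Together the 8 members made up 0.0247%, 0.0199% and 0.0209% of all counts in minocycline replicates 1, 2 and 3, and 0.00696%, 0.00600% and 0.00594% in the vehicle replicates. STC2 supplied 81.1%, 84.3% and 78.9% of the members' counts with minocycline, against 74.9%, 66.1% and 66.2% with vehicle.

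Genes whose levels over the 6 libraries were most like STC2 were MARS1, EIF2S3, VEGFA, SLC2A11 and ZNF773, with Pearson correlations of log2 CPM of 0.993 to 0.996 among 11685 genes of at least 5 CPM. MARS1 encodes the methionyl-tRNA synthetase, EIF2S3 a subunit of the translation initiation factor eIF2, and VEGFA the vascular endothelial growth factor. Their log2 fold changes ran from 0.22 ± 0.12 (ZNF773) to 1.01 ± 0.13 (VEGFA). Most like INHBE were CHAC1, which degrades glutathione, YARS1, the tyrosyl-tRNA synthetase, CBS, an enzyme of cysteine synthesis, PCK2, the mitochondrial phosphoenolpyruvate carboxykinase, and SLC37A4, a glucose 6-phosphate transporter (0.990 to 0.998). CHAC1 had 55.4 ± 5.64 CPM with minocycline and 11.8 ± 3.77 CPM with vehicle (SD, n = 3). PCK2 had 80.3 ± 10.3 CPM with minocycline and 27.9 ± 9.73 CPM with vehicle. Among the members themselves INHBE and ADM2 were most alike (0.977), then STC2 and INHBE (0.921). All these correlations share the same 6 libraries and include the difference between the groups, and they are given as descriptions.

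No receptor or partner of these hormones passed the test. Of 35 such genes, 30 were tested and 0 passed in edgeR's quasi-likelihood test or in DESeq2, with 1 higher and 0 lower at an unadjusted p under 0.05, where 2.72% of all genes were higher and 1.97% lower. Their median log2 fold change was 0.16, with 26 above 0, against 0.013 and 52.1% of genes above 0 over all genes. These are descriptions, since the list was chosen with earlier results of these data known. The smallest p belonged to PAPPA2, a protease of insulin-like growth factor binding proteins and relative of the STC2 target PAPP-A. PAPPA2 had 33, 37 and 29 counts with minocycline, against 11, 10 and 9 counts with vehicle. The 2 groups did not overlap, with a log2 fold change of 1.64 ± 0.31 (adjusted p = 0.217). PAPPA2 passed with no filter on low counts and without vehicle replicate 1 (adjusted p = 0.0132, of a range up to 1.00 over the alternatives). Of all genes, 0.28% passed with no filter and 17.9% without vehicle replicate 1. PAPPA itself had 26, 23 and 10 counts with minocycline, against 19, 17 and 12 with vehicle. INHBC, described above, came next, and ACVR1B, the activin type I receptor, had 63.9 ± 7.66 CPM with minocycline and 53.0 ± 11.1 CPM with vehicle (log2 fold change 0.27 ± 0.17, adjusted p = 0.820, and 0.0303 without vehicle replicate 1).

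Several receptors of the circulating hormones had few or no counts in these cells. GFRAL, the receptor of GDF15, and RAMP3 had 0 counts in all 6 libraries, which allows up to 3 counts in each. KLB, the co-receptor of FGF21, had 6, 9 and 12 counts with minocycline and 14, 8 and 3 counts with vehicle. CALCRL, the receptor of ADM2, had 9, 16 and 12 counts with minocycline and 15, 0 and 11 with vehicle. FGFR1 was present at 97.3 ± 15.8 CPM with minocycline and 85.9 ± 19.0 CPM with vehicle. FURIN, a protease that cleaves precursors of the TGF-beta superfamily, had 193 ± 25.6 CPM with minocycline and 187 ± 28.5 CPM with vehicle. ADM, the calcitonin-family relative of ADM2, had 9.59 ± 0.51 CPM with minocycline and 10.4 ± 0.65 CPM with vehicle, with a log2 fold change of -0.12 ± 0.16.

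Among 26 other secreted factors known from stress responses, 20 were tested and 1 passed, VEGFA, where 0.0522% of all genes did. At an unadjusted p under 0.05, 2 were higher and 0 lower, against 2.72% and 1.97% of all genes. This list was chosen with earlier results of these data known, so nothing is read from these shares. VEGFA had 2122, 1849 and 1917 counts with minocycline, against 1116, 861 and 830 with vehicle (log2 fold change 1.01 ± 0.13, adjusted p = 0.0488). The call was lost with each library except vehicle replicate 1 left out, and with other scalings (adjusted p up to 0.566). ERFE, which encodes erythroferrone, had 52.4 ± 3.49 CPM with minocycline and 41.7 ± 0.91 CPM with vehicle (0.33 ± 0.12, adjusted p = 0.820), and IGFBP3, an insulin-like growth factor binding protein, had 3.50 ± 0.15 and 2.67 ± 0.11 CPM in the same order (0.39 ± 0.21, adjusted p = 0.820). The median of the list was 0.19. MANF and CRELD2, secreted proteins known from endoplasmic reticulum stress, had log2 fold changes of -0.098 ± 0.12 and 0.028 ± 0.11.

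Of 18 transcription factors and cofactors known to act on one or more members, all were tested and 0 passed in edgeR's test, while 6 higher and 1 lower (ATF5, named after its value was seen) had an unadjusted p under 0.05 (2.72% and 1.97% of all genes). DESeq2 called 1, CEBPG (0.284% of all genes). Their median log2 fold change was 0.27. Since the list was made with earlier results of these data known, its counts beside all genes are a description only. CEBPG, a C/EBP protein that pairs with ATF4, had 105 ± 4.92 CPM with minocycline and 61.7 ± 4.81 CPM with vehicle (0.76 ± 0.12, adjusted p = 0.115). XBP1, a factor of the unfolded protein response, had 150 ± 10.4 CPM with minocycline and 102 ± 10.4 CPM with vehicle (0.55 ± 0.13, adjusted p = 0.576). ATF4 had 1204, 987 and 1298 CPM with minocycline, against 528, 751 and 795 CPM with vehicle (0.75 ± 0.19, adjusted p = 0.810). CEBPG, XBP1 and ATF4 all passed without vehicle replicate 1, where 17.9% of all genes did. CEBPG and ATF4, but not XBP1, also passed with no filter on low counts, where 0.28% of all genes did. DDIT3, which encodes CHOP, had a log2 fold change of 0.41 ± 0.30 (adjusted p = 0.820).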

How the data were processed

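Total RNA of 6 cultures was sequenced from both fragment ends, and the authors deposited 1 table of raw whole-number gene counts, on hg19 per the submitters' processing notes. Aligner, counter, annotation and strand setting are not given in the sources used here. The replicates are called biological in the series' design text. Symbols came from a reference table (55538 rows matched), and positions and exon lengths from GENCODE gene models on GRCh37, the assembly behind hg19.

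Genes were filtered with filterByExpr, scaled with TMM factors and tested across all genes with edgeR 4.0.16 (glmQLFit and glmQLFTest, R 4.3.3), with calls at a Benjamini-Hochberg adjusted p under 0.05. CPM are TMM-scaled, and each SE is the log2 fold change over the square root of F. Within-batch differences used log2(CPM + 0.1). The test was also run on simulated counts for 16895 genes, with changed genes above 5 CPM. It recovered 11.9% of 1.5-fold, 80.6% of 2-fold and 100% of 4-fold changes there, and 7.25% of its calls were unchanged genes. Such shares describe the simulated counts only. In the measured libraries ADM2, INHBE and PCK2 had log2 fold changes of 2.03, 1.78 and 1.53 and were not called. A gene without a call is therefore not read as unchanged. Between replicates of a group, chi-square divided by its degrees of freedom was 5.80 to 63.6, so none repeated another.

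The labels give the replicate number as the batch, so the number pairs libraries. Deviations from the group means correlated at -0.050, -0.29 and 0.30 in same-numbered pairs. Pairs of different numbers ran from -0.42 to 0.50, a range that holds all the same-numbered values. Alternatives were RLE and library size scaling, DESeq2 1.42.0, other filters, the batch block and each library left out. The members and lists were chosen with earlier results of these data known. Text names all members, the 3 genes of smallest p and any called gene of each list, the nearest coding neighbours, the 5 genes most like STC2 and INHBE, and ATF4. Genes named beyond that rule (receptors, PAPPA, FGFR1, FURIN, ADM, MANF, CRELD2, DDIT3, ATF5, SBF1 and INHBA-AS1) were chosen after their values were seen.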

Additional observations from a re-analysis of the deposited data

How the results depend on the processing

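STC2 passed in all 12 alternatives (log2 fold change 1.86 to 2.05), INHBE in 5 (1.55 to 1.94), ADM2 in 3 (1.69 to 2.36), and FGF21, STC1, GDF15 and INHBB in 0. The count of members called was 3 with DESeq2, 3 with no filter on low counts, 2 with library size scaling and 2 with the batch as a block, against 1 in the report, and it ran from 1 to 3 with a library left out. Over all genes 9 passed, 49 with DESeq2 and 94 with no filter, and 1 to 3154 with a library left out. Without vehicle replicate 1 the count was 3154; without minocycline replicate 1 or 3 it was 1, and without vehicle replicate 2 it was 4. The batch block gave 13 over all genes, 0 receptors and partners, 1 other secreted factor and 0 transcription factors. For receptors and partners, 1 passed with no filter and 0 to 6 with a library left out. Other secreted factors had 0 with RLE factors and 0 with library size scaling, and 0 to 5 with a library left out. Transcription factors had 1 with DESeq2, 4 with no filter and 0 to 7 with a library left out. Among fits with a library left out, the highest count of the members and of each list came without vehicle replicate 1, where 17.9% of all genes passed. Library size scaling gave positive log2 fold changes of 0.050 for INHBB, 0.040 for BOD1 and 0.0075 for PPP6R2. With a library left out, log2 fold changes lay between -0.13 and 0.14 for INHBB, -0.049 and 0.62 for GDF15, -0.14 and 0.055 for BOD1, -0.14 and 0.033 for GLI3, -0.068 and 0.19 for PGPEP1, and -0.18 and 0.014 for PPP6R2. The causes of these shifts were not tested. Among the windows searched of the members and FUT1, 2 held TGATGNAA and the same 2 held TGATGCAA. They are the FGF21 window and the FUT1 window that overlaps it, and the match is a single site in their shared stretch. Counts under 100 per library limit STC1, FGF21, GDF15 and INHBA in both groups, and INHBE and ADM2 in the vehicle libraries.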
